A study of Mus musculus with 12 samples.

Results

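The 37 genes of the mouse mitochondrial chromosome were followed through 12 whole-lung RNA-seq libraries. They are the rows of the deposited gene count table whose symbol begins with mt-, and they make up 37 of 52550 annotated genes: 13 mRNA genes, 2 rRNA genes and 22 tRNA genes. The lungs came from C57Bl/6J mouse pups, either wild type (WT, Adm+/+) or haplodeficient for adrenomedullin (Adm+/-, 1 of the 2 Adm copies inactivated). Adrenomedullin is a vasoactive peptide with roles in vessel growth and barrier function. Pups received either lipopolysaccharide (LPS, E. coli O55:B5) at 6 mg/kg or phosphate-buffered saline (PBS), intraperitoneally and once a day for 3 doses from postnatal day 3, and lungs were taken on day 5, 6 h after the last dose. Each of the 4 groups (WT PBS, WT LPS, Adm+/- PBS and Adm+/- LPS) held 3 libraries, each from 1 mouse, so p-values measure the spread between mice. Libraries carry the study's running numbers, and these are the replicate numbers used here: 3, 4 and 5 for WT PBS, 9, 10 and 11 for WT LPS, 6, 7 and 8 for Adm+/- PBS, and 1, 2 and 12 for Adm+/- LPS.

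The mitochondrial genome is a circle that is transcribed from both strands into long precursors. Most of its genes are read in one direction, while mt-Nd6 and a minority of the tRNAs are read in the other. Excision of the tRNAs releases the mRNAs and rRNAs, the genes have no introns, and the mRNAs encode the core subunits of respiratory complexes I, III and IV and of ATP synthase (complex V). The rRNAs (12S, mt-Rnr1, and 16S, mt-Rnr2) build the mitochondrial ribosome that translates them. The libraries were made from RNA depleted of rRNA, a step whose probes can also remove mitochondrial rRNA, so that rRNA levels are given library by library.

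Libraries held 22382535 to 38062873 counts. Markers of lung were present in every group, with a summed level of 8 genes (Sftpc, Sftpb, Sftpa1, Ager, Hopx, Scgb1a1, Cldn5 and Pecam1) of 13590 to 17700 CPM (counts per 1e6 TMM-scaled counts, taken over the protein-coding genes tested for mRNAs and over all annotated genes tested for rRNAs, tRNAs and values per kb). The targeted gene, Adm, was at 3.96 to 7.09 CPM in WT PBS and 2.87 to 4.58 CPM in Adm+/- PBS, and at 4.46 to 8.15 against 3.74 to 6.28 CPM under LPS. Its level was lower in Adm+/- lungs by a fitted log2 difference of -0.50 ± 0.32 (SE) under PBS and -0.55 ± 0.31 under LPS, which did not pass the test (edgeR quasi-likelihood, Benjamini-Hochberg adjusted p = 0.999 and 0.480). Groups overlapped, so Adm did not separate the libraries by genotype. Summed levels of 14 skeletal muscle genes were 814 to 2095 CPM in WT LPS and 12.5 to 41.2 CPM in the other 3 groups, and those of 7 neutrophil genes were 1104 to 1985 CPM in LPS and 28.6 to 130.7 CPM in PBS lungs. With LPS, 12 of the 12 muscle genes tested rose in WT and 1 of 12 in Adm+/- lungs, and 6 and 7 of 7 neutrophil genes rose, beside 10.5 and 12.8% of all protein-coding genes tested (edgeR). No 2 libraries of a group were identical or alike within counting noise.

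The sequences that bear on what can be read from these counts are the nuclear copies of mitochondrial genes, since a read that matches 2 places equally has no single origin. Coordinates are those of GENCODE M21 on GRCm38 (mm10). On chromosome 1, 7 annotated pseudogenes on the minus strand (chr1:24611535-24616197, 4663 bases) lie in the same order as mt-Co1, mt-Co2, mt-Atp6, mt-Co3, mt-Nd3, mt-Nd4l and mt-Nd4 lie on chrM:6390-11042. Over 4140 aligned bases the copies and the mitochondrial genes differed at 2 positions. The stretches that hold these positions are printed with the differing base in capitals, each read 5′ to 3′ along its gene. Positions are counted from 1 at the first base of the mitochondrial gene, so the substitutions are A1066T for mt-Co1 (chrM:6390-6433, plus strand) against Gm29216 (chr1:24616145-24616188, minus strand) and T3C for mt-Nd3 (chrM:9459-9501, plus strand) against Gm28438 (chr1:24613077-24613119, minus strand).
mt-Co1: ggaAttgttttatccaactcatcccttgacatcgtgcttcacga
Gm29216: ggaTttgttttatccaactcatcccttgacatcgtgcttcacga
mt-Nd3: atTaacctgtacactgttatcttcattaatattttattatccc
Gm28438: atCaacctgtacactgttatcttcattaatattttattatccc

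Gm28661 (copy of mt-Co2), Gm10925 (mt-Atp6), Gm28437 (mt-Co3), Gm10222 (mt-Nd4l) and Gm28439 (the first 876 bases of mt-Nd4) had 0 differences over their aligned lengths. The gaps between neighbouring copies equal those between their originals, except that 74 bases separate the copies of mt-Nd3 and mt-Nd4l where 73 separate the matching positions on the mitochondrial genome. Between the copies of mt-Co2 and mt-Atp6 there are 233 bases on chromosome 1, and 233 bases separate the matching positions on the mitochondrial genome. Most of mt-Atp8 lies in that gap on the mitochondrial genome, and its last 43 bases are shared with mt-Atp6. At or above 90% identity over 200 bases or more, 15 pseudogenes of mitochondrial mRNA genes were found among the annotated transcripts, the others lying on chromosomes 2, 4, 11 and 13.

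With 1 exception, the mRNA genes found almost whole in other annotated transcripts had the lowest levels. When every run of 100 bases in a gene was looked up in all other annotated transcripts, 97.6 to 99.9% of the runs of mt-Co2, mt-Atp6, mt-Co3, mt-Nd3 and mt-Nd4l were found letter for letter elsewhere. These 5 genes averaged 0.41 to 3.63 CPM per kb of gene over the 12 libraries. mt-Nd4, with 60.8% of its runs copied, averaged 57.7 CPM per kb, and mt-Co1, with 30.8%, averaged 491 CPM per kb.

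Genes without an exact copy in the annotation were far above those 5. mt-Nd1, mt-Nd5 and mt-Nd6 (subunits of NADH dehydrogenase, complex I) averaged 263, 258 and 224 CPM per kb, and mt-Cytb (the cytochrome b of complex III) averaged 259. mt-Nd2, another complex I gene, had 3.2% of its runs copied and averaged 66.7 CPM per kb. mt-Atp8 was the exception, with no annotated copy and 0.12 CPM per kb, the lowest level of the 13.

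**Figure D1:**
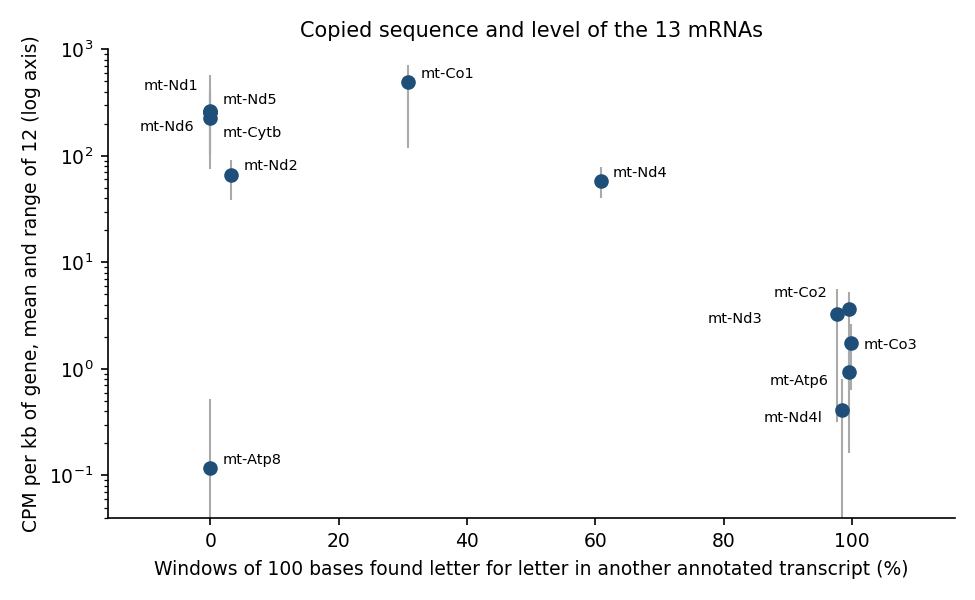
The percentage of 100-base runs found letter for letter in another annotated transcript (horizontal) is plotted against CPM per kb of gene (vertical, log axis) for the 13 mRNA genes. Points are means of 12 libraries and lines run from the lowest to the highest library, reaching the axis where the lowest is 0; the 5 genes at the right lie below 6 CPM per kb in every library.

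The same copies carried counts of their own. Summed over Gm28661, Gm10925, Gm28437, Gm28438 and Gm10222, they were 19 to 183 counts per library against 25 to 314 counts for the 5 mitochondrial genes they copy, a ratio of 0.50 to 0.76. Gm28661 had 453 counts in all where mt-Co2 had 925, Gm28437 had 415 where mt-Co3 had 503, and Gm10925 had 281 where mt-Atp6 had 241. Gm13340 on chromosome 2, which is 97.6% identical to mt-Co1, had 493 counts against 281154. Values of mt-Co2, mt-Atp6, mt-Co3, mt-Nd3 and mt-Nd4l are therefore uncertain, and those of mt-Nd4 and mt-Co1 are uncertain in the part of each gene that is copied. Whether the copies set these levels was not tested, since the treatment of such reads is not given in the sources used here.

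Mitochondrial rRNA took the larger part of the mitochondrial counts. Its share of all counts was 1.44, 0.97 and 0.18% in WT PBS replicates 3, 4 and 5, and 1.91, 1.83 and 1.57% in WT LPS replicates 9, 10 and 11. In Adm+/- lungs it was 0.47, 1.58 and 1.37% in PBS replicates 6, 7 and 8 and 0.60, 1.55 and 1.48% in LPS replicates 1, 2 and 12. Every WT LPS library was above every WT PBS library, the Adm+/- groups overlapped, and WT PBS 5, Adm+/- PBS 6 and Adm+/- LPS 1 were the 3 lowest of the 12. Group means were 0.86 ± 0.64 (SD, n = 3), 1.77 ± 0.18, 1.14 ± 0.59 and 1.21 ± 0.53% for WT PBS, WT LPS, Adm+/- PBS and Adm+/- LPS.

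The share taken by the 13 mRNAs was smaller and steadier. It was 0.23, 0.15 and 0.13% in WT PBS (replicates 3, 4 and 5), 0.25, 0.18 and 0.22% in WT LPS (9, 10 and 11), 0.15, 0.21 and 0.20% in Adm+/- PBS (6, 7 and 8) and 0.28, 0.26 and 0.22% in Adm+/- LPS (1, 2 and 12). WT groups overlapped, whereas the 3 Adm+/- LPS libraries were above the 3 Adm+/- PBS libraries. Adm+/- LPS replicate 1, the third lowest for rRNA, was the highest of all 12 for mRNA. Counting error is small beside these spreads: the 95% Wilson interval of an mRNA or rRNA share reached at most 1.17% of its value to either side, an interval that covers counting error only. The tRNAs took 43 to 385 counts per library.

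**Figure D2:**
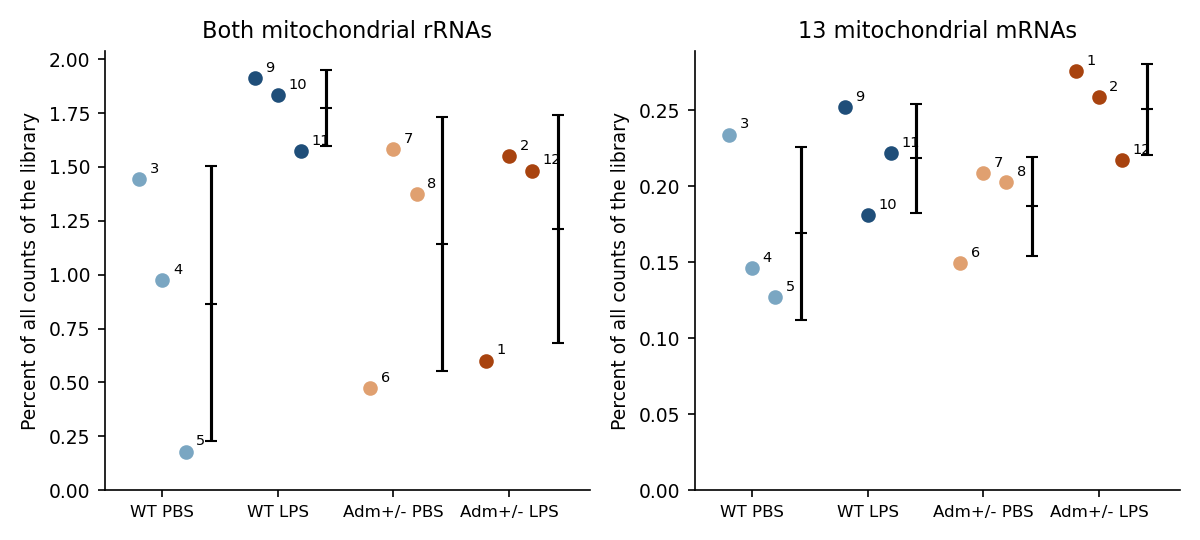
Percent of all counts of a library (vertical, from 0) taken by the 2 mitochondrial rRNAs (left) and the 13 mitochondrial mRNAs (right) in the 4 groups. Each point is a library with its replicate number, and the bar beside it is the mean ± SD of 3; replicates 5, 6 and 1 are lowest for rRNA, and replicate 1 is highest for mRNA.

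The 3 libraries, picked for their low rRNA share, differed from the rest in composition as well as in amount. The ratio of mitochondrial rRNA to mRNA counts was 1.41 in WT PBS 5, 3.16 in Adm+/- PBS 6 and 2.18 in Adm+/- LPS 1, and 5.99 to 10.1 in the other 9. That ratio holds the rRNA counts by which they were picked, so it is no separate support. Gm26917, a long noncoding RNA gene beside an annotated rRNA gene on chromosome 17, was classed here as rRNA-like to check depletion. It held 16.6 and 13.3% of all counts in WT PBS 5 and Adm+/- PBS 6, 6.22% in Adm+/- LPS 1, and 5.42 to 7.40% in the other 9. Protein-coding genes held 77.8, 80.1 and 87.6% of counts in the 3 libraries and 84.3 to 87.2% in the other 9. Beyond mitochondrial rRNA, the basis of the choice, WT PBS 5 and Adm+/- PBS 6 were thus apart on Gm26917 and the protein-coding share. Adm+/- LPS 1 was within the range of the other 9 for Gm26917. How the 3 libraries were handled is not given in the sources used here, and whether depletion, RNA quality or the lungs themselves set these values was not tested.

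mt-Nd6, the complex I gene read from the opposite strand (chrM:13552-14070, minus), was well above its other levels in these libraries. Its level was 334 CPM in WT PBS 5 against 90.8 and 97.1 CPM in replicates 3 and 4, and 224 CPM in Adm+/- PBS 6 against 72.9 and 62.7 CPM in replicates 7 and 8. It was 270 CPM in Adm+/- LPS 1 against 123 and 89.6 CPM in replicates 2 and 12, and 82.7, 79.8 and 104 CPM in WT LPS 9, 10 and 11. The 3 libraries of low rRNA were the 3 highest, at 3.56, 3.30 and 2.54 times the mean of their group mates.

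mt-Nd5, which overlaps mt-Nd6 tail to tail by 14 bases on the other strand (chrM:13552-13565), moved the same way. It was at 457, 393 and 823 CPM in WT PBS 3, 4 and 5, 497, 445 and 466 in WT LPS 9, 10 and 11, 917, 421 and 398 in Adm+/- PBS 6, 7 and 8, and 762, 573 and 478 in Adm+/- LPS 1, 2 and 12. The same 3 libraries were again the highest of the 12. It made up 46.9 and 47.9% of mitochondrial mRNA counts in WT PBS 5 and Adm+/- PBS 6, 23.6% in Adm+/- LPS 1 and 16.8 to 23.6% in the other 9.

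mt-Co1, mt-Cytb and mt-Nd1, read from the same strand as mt-Nd5, were low in the PBS pair and not in Adm+/- LPS 1. mt-Co1, the catalytic subunit of cytochrome c oxidase (complex IV), was at 1083, 627 and 202 CPM in WT PBS 3, 4 and 5 and at 361, 951 and 954 CPM in Adm+/- PBS 6, 7 and 8. Under LPS it was at 1296, 838 and 1091 CPM in WT 9, 10 and 11 and 1090, 1234 and 1065 CPM in Adm+/- 1, 2 and 12. The PBS pair lay at 0.24 and 0.38 times the mean of their group mates and Adm+/- LPS 1 at 0.95 times.

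mt-Cytb followed mt-Co1, at 400, 249 and 95.6 CPM in WT PBS 3, 4 and 5, 452, 329 and 378 in WT LPS, 171, 396 and 374 in Adm+/- PBS 6, 7 and 8, and 482, 474 and 412 in Adm+/- LPS 1, 2 and 12. mt-Nd1 did so too, at 344, 180 and 111 CPM, 411, 285 and 313 CPM, 114, 314 and 299 CPM, and 393, 453 and 362 CPM in the same order of groups and replicates. The ratio of mt-Nd6 to mt-Cytb counts was therefore 3.5 in WT PBS 5, 1.31 in Adm+/- PBS 6 and 0.56 in Adm+/- LPS 1, and 0.17 to 0.39 in the other 9. Among the 11 mRNAs tested, 7 were lower in both PBS libraries than in every one of the other 9, 2 were higher (mt-Nd5 and mt-Nd6) and 2 were mixed (mt-Nd2 and mt-Nd4).

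**Figure D3:**
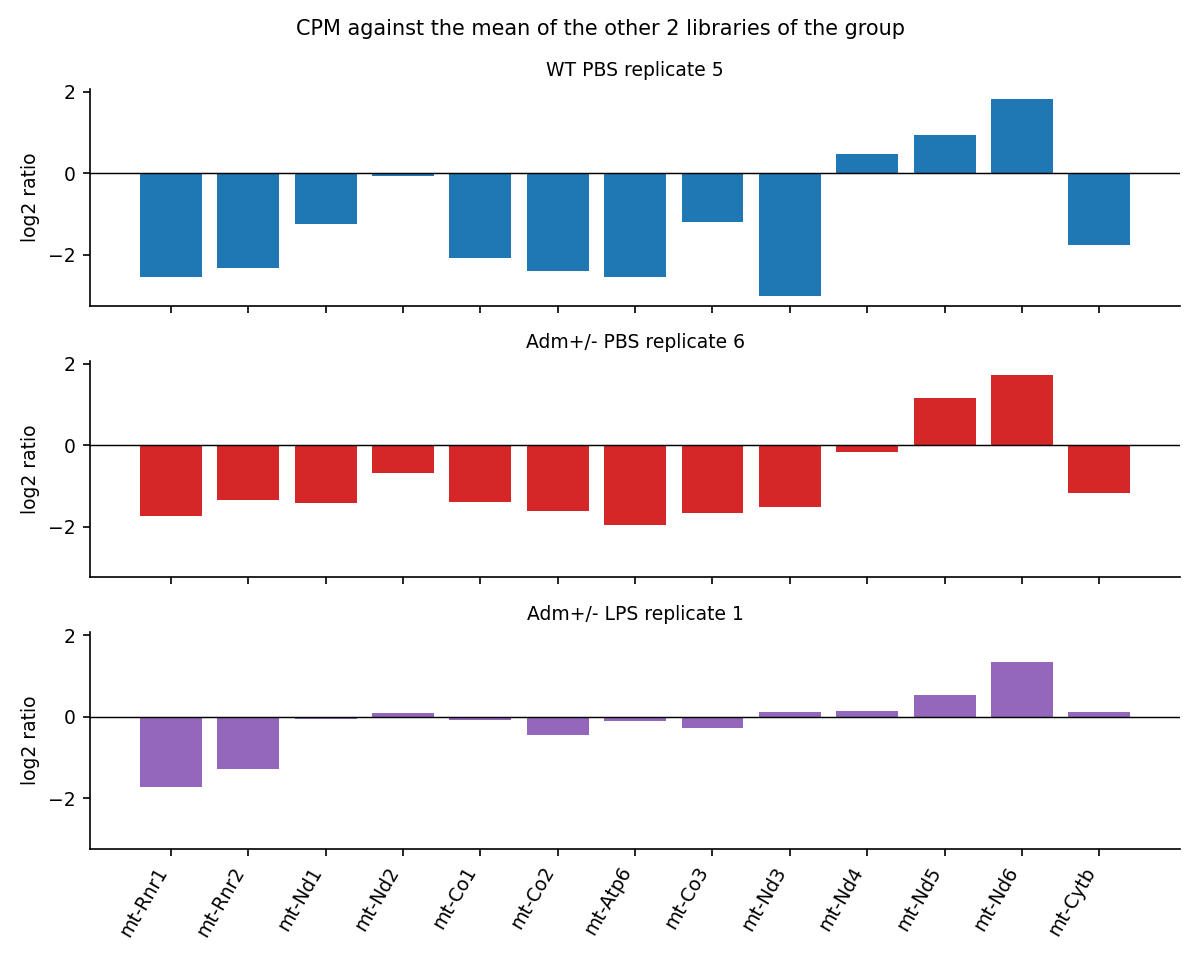
log2 of the CPM in WT PBS replicate 5, Adm+/- PBS replicate 6 and Adm+/- LPS replicate 1 over the mean of the other 2 libraries of the same group, for both rRNAs and the 11 tested mRNAs in genome order. mt-Nd5 and mt-Nd6 are above 0 and both rRNAs below 0 in all 3 libraries, while most other mRNAs are below 0 in the PBS pair and near 0 in Adm+/- LPS replicate 1.

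mt-Nd2 and mt-Nd4, both of complex I, varied less. mt-Nd2 was at 92.4, 47.5 and 67.2 CPM in WT PBS 3, 4 and 5, 105, 63.5 and 82.7 in WT LPS, 48.6, 76.3 and 80.0 in Adm+/- PBS, and 111, 113 and 95.1 in Adm+/- LPS 1, 2 and 12. mt-Nd4 was at 105, 66.1 and 120 CPM, 104, 76.7 and 85.5 CPM, 77.4, 90.9 and 83.8 CPM, and 111, 112 and 91.5 CPM in the same order. Of the 3 libraries of low rRNA, only WT PBS 5 was the highest of the 12 for mt-Nd4, and none was the highest for mt-Nd2.

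The copied genes stood at counts of 0 to 133 per library. mt-Co2, of complex IV, had 84, 39 and 8 counts in WT PBS, 133, 76 and 90 in WT LPS, 20, 102 and 75 in Adm+/- PBS and 82, 101 and 115 in Adm+/- LPS. mt-Co3, of the same complex, had 62, 26 and 13, then 55, 37 and 38, then 11, 44 and 55, then 48, 45 and 69 counts. WT PBS 5 and Adm+/- PBS 6 were the 2 lowest libraries for both genes.

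mt-Nd3, of complex I, had 36, 12 and 2 counts in WT PBS, 68, 36 and 58 in WT LPS, 9, 29 and 44 in Adm+/- PBS and 46, 39 and 44 in Adm+/- LPS. mt-Atp6, the ATP synthase subunit that forms the proton path, had 28, 7 and 2, then 53, 9 and 28, then 3, 19 and 15, then 25, 25 and 27 counts. mt-Nd4l had 0 to 8 and mt-Atp8 0 to 3 counts per library, and neither passed the filter on low counts. The other 11 mRNAs did.

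**Figure D4:**
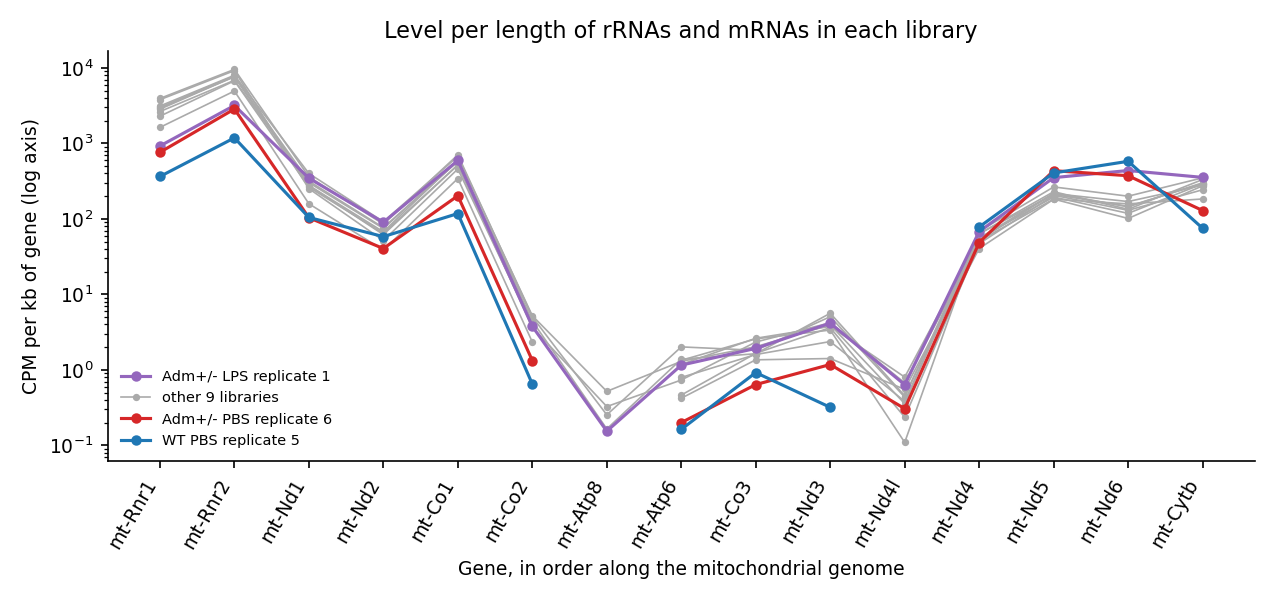
CPM per kb of gene (log axis) of the 2 rRNAs and 13 mRNAs in each library, in order along the mitochondrial genome. Grey lines are 9 libraries and coloured lines the 3 of lowest rRNA share, values of 0 are left out, and the run from mt-Co2 to mt-Nd4l lies below the rest in every library.

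No mitochondrial mRNA passed the test after LPS in either genotype. A gene was called when its adjusted p (edgeR quasi-likelihood test, Benjamini-Hochberg over all 15885 protein-coding genes tested) was below 0.05 and its log2 fold change beyond 0.5. In WT lungs 0 of 11 mRNAs were called where 17.6% of all tested genes were, and in Adm+/- lungs 0 of 11 where 25% were. At an unadjusted p below 0.05 there was 1 of 11 in each, beside 36.7 and 41.8% of all genes. With DESeq2 the counts were 0 and 1 (mt-Nd2), and without WT PBS 3 the WT count was 2 (mt-Nd1 and mt-Nd3). Skeletal muscle and neutrophil markers were also higher in the WT LPS libraries, and neutrophil markers in the Adm+/- LPS libraries, at the levels given above, and their part in these values was not tested. In bulk tissue, fewer cells of a type and less RNA per cell cannot be told apart.

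Fitted changes were mostly upward. In WT lungs 8 of 11 log2 fold changes were positive, with a median of 0.64 and a range of -0.97 (mt-Nd6) to 1.40 (mt-Nd3), beside a median of 0.01 over all genes tested. In Adm+/- lungs all 11 were positive, from 0.06 (mt-Nd5) to 1.01 (mt-Atp6), with a median of 0.58 beside -0.01. The mRNAs are cut from shared long precursors, so these signs and medians are not 11 independent observations. The 2 comparisons have no library in common, but each contains 1 of the PBS pair of low rRNA.

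mt-Nd3 came nearest in WT lungs, with a log2 fold change of 1.40 ± 0.56 (SE) and an adjusted p of 0.0962 by edgeR, and all 3 LPS libraries above all 3 PBS libraries. mt-Nd2 came nearest in Adm+/- lungs, at 0.64 ± 0.26 (adjusted p = 0.0798, edgeR), again without overlap. Without overlap and higher under LPS were 1 of 11 mRNAs in WT lungs, where 18.3% of all genes were, and 6 of 11 in Adm+/- lungs, where 26.6% were. These 6 were mt-Nd1, mt-Nd2, mt-Co1, mt-Atp6, mt-Nd4 and mt-Cytb. mt-Co1 itself changed by a fitted 0.75 ± 0.49 in WT and 0.58 ± 0.49 in Adm+/- lungs (adjusted p = 0.283 and 0.398, edgeR).

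Leaving out WT PBS 5 and Adm+/- PBS 6 changed the calls for the genes that were high there. In Adm+/- lungs the values of mt-Nd5 and mt-Nd6 were then 0.56 and 1.25 (adjusted p = 0.0283 and 0.0310, edgeR), against 0.06 and 0.43 with all libraries. The PBS library left out is the highest of its group for both genes, while Adm+/- LPS 1, high in the same way, is kept, so these p-values are no evidence of a rise. With Adm+/- LPS 1 left out too, mt-Nd6 stood at 0.64 (adjusted p = 0.0279) and mt-Nd5 at 0.35 (adjusted p = 0.0557), again after leaving out libraries that are extreme for these genes. In WT lungs mt-Nd6 moved from -0.97 to -0.08 without the pair (adjusted p = 0.263 and 0.894), and mt-Co1 from 0.75 to 0.33 (adjusted p = 0.283 and 0.326).

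mt-Rnr2, the 16S rRNA (chrM:1094-2675), was at 10830, 7807 and 1871 CPM in WT PBS 3, 4 and 5 and 15100, 14550 and 12320 CPM in WT LPS 9, 10 and 11. In Adm+/- lungs it was at 4509, 12190 and 10660 CPM in PBS 6, 7 and 8 and 5031, 12630 and 12030 CPM in LPS 1, 2 and 12. mt-Rnr1, the 12S rRNA (chrM:70-1024), was at 2519, 1555 and 348 CPM, 3758, 3619 and 2856 CPM, 727, 2708 and 2187 CPM, and 881, 2983 and 2817 CPM in the same order. Both rRNAs were higher in all 3 WT LPS than in all 3 WT PBS libraries, as were 15.8% of all 23051 genes tested, and they overlapped in Adm+/- lungs.

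The fitted difference in WT lungs was 1.03 ± 0.54 for mt-Rnr2 and 1.21 ± 0.64 for mt-Rnr1 on the log2 scale (adjusted p = 0.218 and 0.221, edgeR over all annotated genes), so 0 of 2 were called. In Adm+/- lungs the values were 0.12 ± 0.54 and 0.25 ± 0.63 (adjusted p = 0.903 and 0.815). Leaving out WT PBS 5 and Adm+/- PBS 6 gave 0.58 and 0.74 in WT (adjusted p = 0.254 and 0.267). With all 3 libraries of lowest rRNA left out, the WT values were 0.58 and 0.73 with adjusted p = 0.0430 and 0.0449. Those 3 were set aside for their rRNA share, the same quantity, so the latter p-values are no independent evidence.

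The tRNAs were near the limit of detection. mt-Tf, mt-Ts1, mt-Td and mt-Tk had 0 counts in every library, which allows up to 3 counts in each, or 0.0777 to 0.167 CPM. mt-Ts1, mt-Td and mt-Tk lie mostly or wholly between the copied genes of the chromosome 1 stretch, in intervals not searched for copies. For them the limit covers counted reads only, since reads with several matches may have been dropped. Of the other 18, 9 passed the filter on low counts, with totals over all 12 libraries of 88 to 567 counts. The 4 of highest mean CPM were mt-Tc, mt-Tl2, mt-Tp and mt-Tn, which carry cysteine, leucine, proline and asparagine.

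mt-Tc had 54, 21 and 2 counts in WT PBS, 73, 38 and 95 in WT LPS, 6, 50 and 63 in Adm+/- PBS and 49, 62 and 54 in Adm+/- LPS. mt-Tn had 33, 12 and 0, then 48, 20 and 32, then 3, 28 and 29, then 22, 39 and 26 counts. Both were lowest in WT PBS 5 and Adm+/- PBS 6. mt-Tl2 ran from 0.67 to 1.49 CPM and mt-Tp from 0.33 to 1.76 CPM over the 12 libraries, with smaller differences between libraries.

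The members that passed the test were both tRNAs, mt-Ta (alanine) and mt-Tr (arginine), named here for that reason after their values were seen. Their sequences are printed with the anticodon in capitals, mt-Ta from chrM:5018-5086 on the minus strand and mt-Tr from chrM:9808-9875 on the plus strand.
mt-Ta: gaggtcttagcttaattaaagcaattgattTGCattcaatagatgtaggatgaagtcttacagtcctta
mt-Tr: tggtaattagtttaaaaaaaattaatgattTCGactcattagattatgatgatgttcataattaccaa

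mt-Ta had 8, 3 and 2 counts in WT PBS and 15, 16 and 17 in WT LPS, and 7, 10 and 8 in Adm+/- PBS and 17, 21 and 20 in Adm+/- LPS. In each genotype the LPS libraries lay above the PBS libraries. It rose by 1.51 ± 0.39 in WT (adjusted p = 0.0225, edgeR) and by 1.10 ± 0.34 in Adm+/- lungs (adjusted p = 0.0348). The difference between these changes was -0.41 ± 0.52 (adjusted p = 0.999, 95% interval -1.54 to 0.72). Without WT PBS 5 and Adm+/- PBS 6 the WT value of mt-Ta was 1.32 (adjusted p = 0.0633, edgeR), which lost the call, and the Adm+/- value was 1.17 (adjusted p = 0.0452), which kept it. Without all 3 libraries the values were 1.32 and 1.25 (adjusted p = 0.0803 and 0.0650), which lost both.

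mt-Tr had 17, 8 and 1 counts in WT PBS, 36, 23 and 28 in WT LPS, 14, 23 and 19 in Adm+/- PBS and 25, 33 and 31 in Adm+/- LPS. WT PBS 5, with 1 count, was the lowest library. mt-Tr lies between mt-Nd3 and mt-Nd4l, inside the stretch copied on chromosome 1, where 74 bases separate the copies of these 2 genes. Copies were sought only in annotated transcripts, so that interval was not searched and the values of mt-Tr are uncertain too. mt-Tr rose by 1.39 ± 0.43 in WT (adjusted p = 0.0482, edgeR), and the fitted value in Adm+/- lungs was 0.57 ± 0.39 (adjusted p = 0.317), where the groups did not overlap either. Without the PBS pair the WT value was 0.99 with an adjusted p of 0.0624. In all, 2 of 9 tRNAs were called in WT and 1 of 9 in Adm+/- lungs, beside 13.2 and 21.6% of all annotated genes tested (7.7 and 11% in the upward direction), and all calls rest on fewer than 40 counts per library. When each of the 12 libraries was left out in turn, the WT count of called rRNAs and tRNAs moved in 12 of 12 fits (0 to 4) and the Adm+/- count in 10 of 12 (0 to 3), and mt-Tr lost its call in 11 of 12. At an unadjusted p below 0.05 there were 4 and 2 of 9, beside 30.9 and 36.7%. Without overlap and higher under LPS were 3 of 9 in each genotype, mt-Ta, mt-Tr and mt-Ts2 in WT and mt-Ta, mt-Tr and mt-Tp in Adm+/- lungs, beside 15.8 and 23.8% of all genes.

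**Figure D5:**
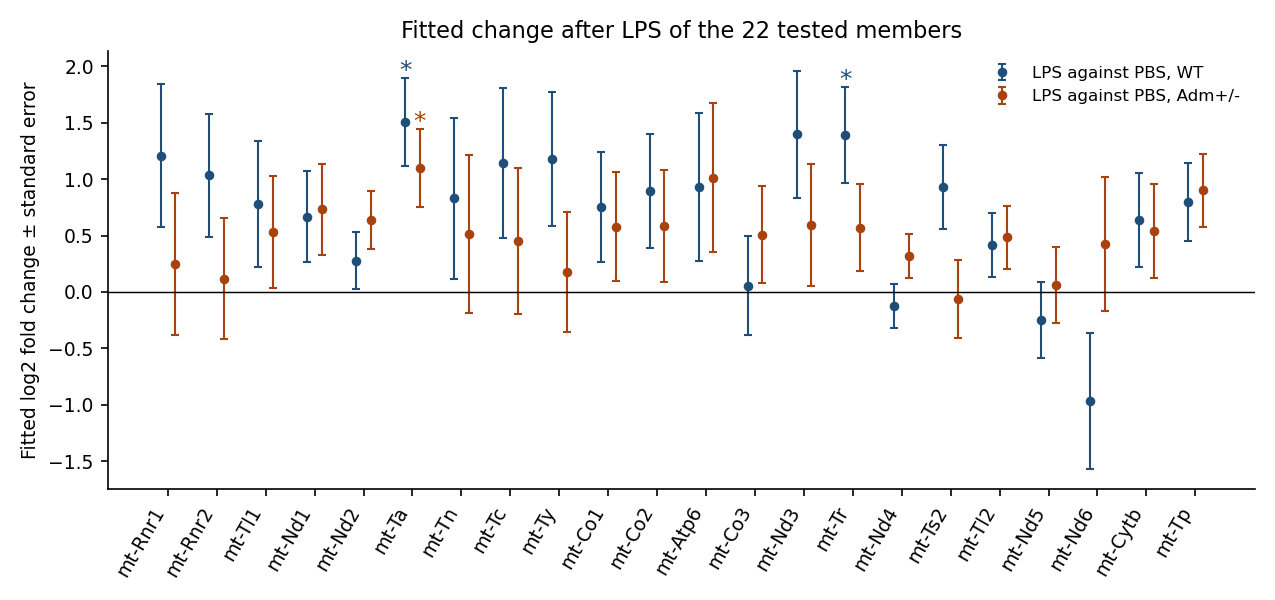
Fitted log2 fold change of LPS against PBS (vertical) with its standard error for the 22 members tested, in genome order, in WT (blue) and Adm+/- (brown) lungs of 3 libraries per group. Asterisks mark the calls, mt-Ta in both genotypes and mt-Tr in WT; mt-Nd6 lies at -0.97 in WT and 0.43 in Adm+/- lungs, with standard errors that do not meet and a difference that did not pass its own test.

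Genotype made no called difference for any member. Under PBS 0 of the 11 mRNAs and 0 of the 11 rRNAs and tRNAs tested were called between Adm+/- and WT lungs, and 0% of all genes were. At an unadjusted p below 0.05 there were 0 mRNAs, beside 2.17% of genes, and 1 tRNA, beside 2.65% (mt-Ts2, serine, log2 difference 0.92 ± 0.38, edgeR adjusted p = 1). mt-Ta and mt-Tr were higher in all 3 Adm+/- PBS than in all 3 WT PBS libraries, as were 2.67% of all annotated genes, and no mRNA was, beside 2.47% of protein-coding genes. Under LPS the counts were again 0 and 0, beside 2.05% of protein-coding and 1.33% of all annotated genes, and DESeq2 also called 0 under either treatment. No member there had an unadjusted p below 0.05 (edgeR), beside 14.3 and 11.9% of genes, and mt-Co3 and mt-Tp were higher in Adm+/- than in WT lungs without overlap, beside 12.2 and 10.7%. For mt-Co1 the 95% interval of the difference ran from -0.99 to 1.13 under LPS and from -0.82 to 1.31 under PBS.

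No member passed the test for an effect of LPS that differs by genotype, which is the test of the difference itself (0 of 11 mRNAs, beside 0.145% of all genes, and 0 of 11 rRNAs and tRNAs, beside 0.0824%; DESeq2 also 0). At an unadjusted p below 0.05 there were 0 of each, beside 7.85 and 6.99% of genes. The furthest apart was mt-Nd6, at -0.97 in WT and 0.43 in Adm+/- lungs, a difference of 1.40 ± 0.85 with an adjusted p of 0.806 (edgeR). The 95% interval ran from -0.46 to 3.25. For mt-Rnr1 and mt-Rnr2 the differences were -0.96 ± 0.89 and -0.92 ± 0.76 (adjusted p = 0.982 and 0.961).

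Few nuclear genes that serve the mitochondrial genome passed the test. Of 51 tested genes for its transcription, replication, RNA processing and control, 1 rose in WT lungs and 1 rose and 1 fell in Adm+/- lungs, beside 10.5 and 12.8% of all genes called upward and 12.2% called downward in Adm+/- lungs. Ppargc1a, a coactivator of mitochondrial biogenesis, was at 6.12 to 9.09 CPM in WT PBS and 10.7 to 13.7 CPM in WT LPS, and at 3.998 to 6.92 and 10.5 to 14.0 CPM in Adm+/- lungs. It rose by 0.79 ± 0.23 in WT (adjusted p = 0.0297, edgeR) and by 1.04 ± 0.23 in Adm+/- lungs (adjusted p = 0.00545), without overlap in either. The WT call was lost when WT PBS 4, WT PBS 5, WT LPS 9 or WT LPS 10 was left out alone. Without WT PBS 5 and Adm+/- PBS 6 the list's counts were 2 in WT and 4 in Adm+/- lungs, with Ppargc1a at 0.67 and 0.83 among them (adjusted p = 0.0313 and 0.00776, edgeR).

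Mgme1, a nuclease of mitochondrial DNA replication, fell by 0.87 ± 0.18 in Adm+/- lungs (adjusted p = 0.00372, edgeR), from 8.23 to 10.4 CPM under PBS to 4.56 to 5.87 CPM under LPS. In WT lungs it stood at -0.41 ± 0.18 (adjusted p = 0.113). Named after their values were seen, Tfam, which packages mitochondrial DNA and starts its transcription, was at -0.15 ± 0.12 in WT and -0.02 ± 0.12 in Adm+/- lungs, and the mitochondrial RNA polymerase gene Polrmt at -0.26 ± 0.19 and -0.19 ± 0.19 (adjusted p of 0.339 to 0.920).

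Of 84 tested nuclear genes for respiratory subunits and their relatives, 2 fell in WT and 3 in Adm+/- lungs and 0 rose, beside called shares of 7.09 and 12.2% of all genes in that direction. The WT count moved in 10 of 12 fits that left out 1 library (0 to 7), with 7 without WT PBS 3 and 0 without WT PBS 5 or WT LPS 11, and was 1 with limma-voom. Ndufb3, an accessory subunit of complex I, fell by 0.54 ± 0.17 in WT (adjusted p = 0.0399, edgeR) and by 0.55 ± 0.17 in Adm+/- lungs (adjusted p = 0.0285). It was highest of the 12 in WT PBS 5 (29.5 CPM against 20.7 and 22.8) and Adm+/- PBS 6 (31.2 CPM against 24.8 and 20.6), as was the summed list (5642 and 5382 CPM against 4528 to 5207). Without these libraries Ndufb3 stood at -0.39 and -0.38, and neither WT call was kept. The other calls were Cox4i2, the lung form of a complex IV subunit, at -0.50 in WT, and Atp5s and Cox6b2 at -0.92 and -0.62 in Adm+/- lungs, of which Atp5s alone kept its call without the pair (-0.90, adjusted p = 0.00155, edgeR). The list's median was 0.01 in WT and -0.08 in Adm+/- lungs, beside 0.01 and -0.01 over all genes.

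Of 77 tested genes for proteins of the mitochondrial ribosome, which binds the 2 rRNAs, 1 fell in WT and 5 fell in Adm+/- lungs, and 0 rose, which is 1.3 and 6.49% of the list called lower beside 7.09 and 12.2% of all genes. Mrps6 fell by 0.54 ± 0.17 in WT (adjusted p = 0.0442, edgeR) and by 0.96 ± 0.17 in Adm+/- lungs (adjusted p = 0.00167), where Mrps15, Mrpl34, Mrpl58 and Mrpl28 fell by 0.55 to 0.75 (Mrpl28 lay outside the rule for named genes and was named after its values were seen). The 4 genes other than Mrps6 were highest of their group in Adm+/- PBS 6 (Mrpl28 at 51.4 CPM against 35.6 and 31.0), and the summed list was highest of the 12 in Adm+/- PBS 6 and WT PBS 5 (1719 and 1670 CPM). Without that pair Mrps6 stood at -0.98 and Mrpl28 at -0.51 in Adm+/- lungs (adjusted p = 0.000944 and 0.00808, edgeR), and Mrps15, Mrpl34 and Mrpl58 lost their calls at -0.44 to -0.50. Other genes of the list were called in their place. The Adm+/- count of the list was 4 to 5 in each of the 3 alternatives that did not leave out a single library, this one among them. In WT lungs Mrps6 kept its call without the pair, at -0.70, but among the fits that left out 1 library it did so only without WT PBS 5 or WT LPS 11. Medians were -0.09 and -0.12. In none of these 3 lists was a gene called for genotype under PBS or LPS or for the difference of the LPS effects (edgeR).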

How the data were processed

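Total RNA of 12 whole lungs was depleted of rRNA and made into strand-preserving libraries. Per the submitters' processing notes and the study's methods, the authors trimmed reads with Trim Galore, aligned them to the UCSC mm10 genome with HISAT2 (2.1.0) and counted them with featureCounts (1.6.4) on a Gencode annotation. The strand option, the treatment of reads with several matches and the annotation release are not given in the sources used here. The deposited values are raw counts per gene, not normalized. A read with several equal matches may be dropped or split by such counting, which bears on genes with nuclear copies.

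Counts were tested with edgeR 4.0.16 in R 4.3.3 (TMM factors, filterByExpr, quasi-likelihood F-test, 1 coefficient per group, all 12 libraries, 8 residual degrees of freedom). mRNAs were tested among 15885 protein-coding genes, and rRNAs and tRNAs among 23051 genes of all kinds. CPM of mRNAs are on the protein-coding total, CPM of rRNAs and tRNAs and all values per kb are on the total of all genes, both with TMM factors. Alternatives used DESeq2 1.42.0 and limma-voom 3.58.1. The fits were tested on simulated data. Wilson intervals are at 95%. Copies were searched among GENCODE M21 transcripts with BLAST, 52403 of 52550 genes having a match by identifier and all 37 members among them. The members and lists were chosen with earlier results of these data known. Named were all mRNAs and rRNAs, the 4 tRNAs of highest mean CPM and, from each other list, the called genes of smallest p, at most 4 per direction; exceptions are marked. Brown fat, cardiac, liver and erythroid marker lists were also measured.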

Additional observations from a re-analysis of the deposited data

How the results depend on the processing

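Counts of called mRNAs under LPS in Adm+/- lungs (0) became 1 with DESeq2 (mt-Nd2), 1 with only the groups compared (mt-Nd2), 2 without WT PBS 5 and Adm+/- PBS 6 (mt-Nd5 and mt-Nd6) and 1 without the 3 libraries of lowest rRNA share (mt-Nd6), the last chosen after seeing the data. In WT lungs leaving out 1 library gave 0 to 2, with 2 (mt-Nd1 and mt-Nd3) without WT PBS 3. The count of called rRNAs and tRNAs in WT lungs (2) became 0 with limma-voom treat, 1 with no filter on low counts, 0 with only the groups compared and 0 without WT PBS 5 and Adm+/- PBS 6; leaving out 1 library gave 0 to 4 and never 2, with 4 without WT PBS 3 and 0 without WT PBS 4, WT PBS 5, WT LPS 10 or WT LPS 11. Without the 3 libraries it stayed 2, but these were mt-Rnr1 and mt-Rnr2 in place of mt-Ta and mt-Tr. In Adm+/- lungs (1) it became 2 with limma-voom, 0 with treat, 2 with only the groups compared and 0 without the 3 libraries; leaving out 1 gave 0 to 3, with 3 without WT PBS 3 or WT PBS 5 and 0 without Adm+/- PBS 6, Adm+/- PBS 8, Adm+/- LPS 2 or Adm+/- LPS 12. Of 21 alternatives, mt-Ta lost its call in 8 in WT and 10 in Adm+/- lungs and mt-Tr in 16, with adjusted p (edgeR, DESeq2 or limma) of 0.0173 to 0.261, 0.0276 to 0.412 and 0.0143 to 0.266. No called value changed sign, while 9 of 44 fitted LPS effects did so under at least 1 alternative. Counts for genotype and for the difference stayed 0 for all members under each of the 21. The cause was not tested.

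With protein-coding counts plus mitochondrial rows as denominator, the mRNA share of Adm+/- LPS was 0.286 and the rRNA share of WT LPS 2.04%. Leaving out 1 library gave called counts of 0 to 3 (machinery, WT), 0 to 1 (machinery, genotype under LPS; 1 without WT PBS 5), 0 to 7 (respiratory subunits, WT; 7 without WT PBS 3), 1 to 5 (the same, Adm+/-), 0 to 2 (mitochondrial ribosome, WT) and 3 to 7 (the same, Adm+/-); with limma-voom the respiratory count in WT was 1. Without WT PBS 5 and Adm+/- PBS 6, chosen for these lists after seeing the data, the machinery counts were 2 (WT), 4 (Adm+/-) and 1 (genotype under LPS), and the respiratory counts 1 (WT, Cox7a1, upward) and 1 (Adm+/-). Without the 3 libraries the machinery counts were 2 and 5 and the WT respiratory count 0. No paired analysis was possible because no litter or other pairing of the mice is given in the sources used here. Counts under 40 per library limit what is said of mt-Ta and mt-Tr.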

Other observations

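The balance of the 2 rRNAs, which are cut from the same precursor, also set the 3 libraries of low rRNA apart. The ratio of mt-Rnr2 to mt-Rnr1 counts was 5.38 in WT PBS 5, 6.201 in Adm+/- PBS 6 and 5.71 in Adm+/- LPS 1, and 4.02 to 5.02 in the other 9 libraries. CT010467.1, an annotated nuclear rRNA gene on chromosome 17, held 0.268, 0.262 and 0.0261% of counts in these libraries and 0.0701 to 0.263% in the other 9.

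Summed levels of brown fat genes were 43.9 CPM in WT PBS 5, a library of low rRNA, and 4.58 to 15.3 CPM in the other 11, and those of cardiac muscle genes 237 to 861 CPM over all libraries, with overlapping ranges between PBS and LPS in each genotype. Of the tested genes in these lists, in the order cardiac, brown fat, liver and erythroid, 1 of 10, 1 of 6, 1 of 6 and 0 of 6 rose in WT lungs and 0 of each rose in Adm+/- lungs (edgeR, Benjamini-Hochberg adjusted), beside 10.5 and 12.8% of all protein-coding genes tested. Of 8 lung genes, 0 rose in WT and 1 rose in Adm+/- lungs.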
